A study of Mus musculus with 8 samples.

Results

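The genes described here are 9 parts of the machinery by which a mammalian cell detects foreign RNA and relays the alarm: the RNA sensors Ddx58, Ifih1, Tlr3 and Eif2ak2, the mitochondrial adaptor Mavs, the transcription factors Irf3, Stat2 and Irf9, and the interferon-induced effector Ifit2. They were chosen by name, by matching gene symbols in a table of read counts for 55536 mouse genes, and all 9 were found. A filter on low counts left 16333 genes for testing, among them 8 of the 9. Tlr3 did not pass it and is given by its counts.

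The counts come from alphaTC6, an established mouse line of pancreatic alpha cells, the glucagon-secreting cells of the islet, with the genotype given as WT. Every library came from cells reverse transfected for 48 h with RNAiMax Lipofectamine, a lipid carrier, bearing small interfering RNA (siRNA): siScramble, a control, in 4 libraries, or a pool directed against the transcription factor Klf4 in 4. Both groups therefore received lipid and short double-stranded RNA, and no library of untransfected cells is analysed here, so a response to transfection shared by both groups cannot be measured. The labels also name a batch without saying what it stands for: scramble replicates 1 and 2 and Klf4 siRNA replicates 1, 2 and 4 are batch 1, and scramble replicates 3 and 4 and Klf4 siRNA replicate 3 are batch 2. The extraction text mentions islets, but the samples carry the name of the line. Where 4 values of a treatment are given, they stand in the order of its replicates 1 to 4. The study's design text calls the 4 libraries of a treatment biological replicates.

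RIG-I-like receptors are cytosolic helicases that bind double-stranded or 5′-triphosphate RNA and assemble the adaptor MAVS on mitochondria, which activates the kinases TBK1 and IKKε and through them the transcription factor IRF3. TLR3 senses double-stranded RNA in endosomes and reaches the same kinases through TICAM1, whereas the kinase PKR, encoded by Eif2ak2, binds double-stranded RNA and stops translation by phosphorylating eIF2 alpha. Interferon made in response acts back on cells through JAK kinases and a complex that contains STAT2 and IRF9 and binds the interferon-stimulated response element (ISRE) of many genes, several of the sensors included.

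The ISRE core, taken as GAAA, any 2 bases and GAAA on either strand, was looked for in RefSeq promoter windows of 300 bases (GRCm38.p6, from 250 bases before the gene's start to 50 after it), which were given for all 9 genes. It was present for 4 of the 9, Ddx58, Ifih1, Eif2ak2 and Stat2, and for 3.99% of the 27025 genes with a window. The stretches that hold it are shown because 2 of these genes, Ddx58 and Ifih1, were higher in batch 2 while the other two, Eif2ak2 and Stat2, were not called. They are written 5′ to 3′ on the gene's own strand, with the core in capitals:
Ddx58, chr4:40239804-40239833, minus strand: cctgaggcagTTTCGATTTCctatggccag
Ifih1, chr2:62646206-62646233, minus strand: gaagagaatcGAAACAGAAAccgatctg
Eif2ak2, chr17:78882535-78882564, minus strand: agtccgccggGAAAACGAAAcagaagagaa
Stat2, chr10:128270266-128270295, plus strand: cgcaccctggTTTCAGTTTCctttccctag
The match begins 2 bases after the start for Ddx58, 18 after it for Eif2ak2 and 32 after it for Ifih1, and 222 bases before it for Stat2. In Ddx58 and Stat2 it lies on the opposite strand and therefore reads TTTC, 2 bases, TTTC. The windows of Tlr3, Mavs, Irf3, Irf9 and Ifit2 do not contain these letters. CACCC, the core of the box bound by Klf4 and its relatives, was found on either strand in at least 1 window of 7 of the 9 genes, against 59.8% of all genes, and was missing from those of Tlr3 and Mavs. A match describes the letters of the window and no more.

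Total counts ran from 45954151 to 64185987 per library, so that 3 counts, the limit that a count of 0 allows, correspond to 0.0468 to 0.0637 CPM (read counts scaled to library size, here after TMM scaling). Klf4, the targeted gene, was at 41.8 ± 5.67 CPM in scramble and 15.6 ± 4.26 CPM after Klf4 siRNA (SD, n = 4 each). The groups did not overlap, and Klf4 fell by 1.33 on the log2 scale (SE 0.17; edgeR adjusted p = 0.00830; 0.0524 without scramble replicate 1 and 0.104 in batch 1 alone). Alpha cell markers summed to between 2257 and 10281 CPM, and Ins1 and Ins2, the insulin genes that define beta cells, had 0 counts in all 8 libraries. The other listed beta cell markers were counted in every library, Mafa with 143 to 207 counts, Iapp with 2 to 19 and Slc2a2 with 3 to 13. Of 8 immune markers 4 passed the filter on low counts; Itgam had 46 to 151 counts per library, Cd68 77 to 145, Cd79a 51 to 84, Lyz2 14 to 42 and Csf1r 5 to 31, while Adgre1 had 0 in every library and Ptprc and Cd3e had at most 1.

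Levels of different genes were compared per kilobase of exon. Irf3 and Eif2ak2 were the most abundant of the 9, at 8.46 ± 1.07 and 8.03 ± 0.270 CPM per kilobase (SD, n = 8 libraries), above the median of 4.36 over all tested genes. Irf3 was the higher of the pair in 5 of 8 libraries, and their ranges overlapped. Stat2 followed at 4.72 ± 0.491, then Ifit2 at 1.25 ± 0.185, Irf9 at 0.793 ± 0.102 and Mavs at 0.565 ± 0.140 CPM per kilobase. The 2 RIG-I-like sensors lay lower, Ifih1 at 0.208 ± 0.187 and Ddx58 at 0.136 ± 0.0351, below the lower quartile of 0.736 over tested genes. Tlr3 was lowest, at 0.0197 ± 0.00936 CPM per kilobase. The ranges of Irf9 and Mavs, of Mavs and Ifih1, and of Ifih1 and Ddx58 overlapped, whereas Eif2ak2, Stat2, Ifit2 and Irf9 stood in that order in all 8 libraries with no overlap between neighbours. The mean levels of the transcription factors Irf3 and Stat2 and the kinase Eif2ak2 were thus above the median of the tested genes. Those of the sensors Ddx58, Ifih1 and Tlr3 and of the adaptor Mavs were below the lower quartile.

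**Figure D1:**
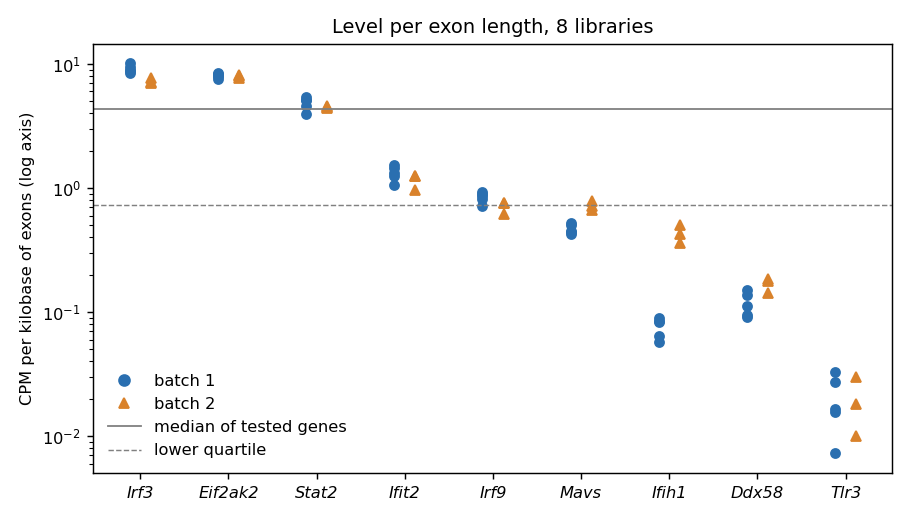
Level of each of the 9 genes in CPM per kilobase of exon (log axis), 1 point per library, circles for batch 1 and triangles for batch 2; horizontal lines give the median (4.36) and lower quartile (0.736) of all tested genes. Irf3, Eif2ak2 and the mean of Stat2 lie above the median, and Ifih1, Ddx58 and Tlr3 lie below the lower quartile in every library, with Ifih1 split by batch.

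After Klf4 siRNA, Ifit2 was lower, at a fitted 79.98% of scramble, and none of the other 7 tested genes passed the threshold, an adjusted p under 0.05. That is 1 of 8 called, lower, where 11.7% of all tested genes were called in either direction and 6.81% lower. None of the 8 separated the treatments over all libraries without overlap, against 10.5% of tested genes. Their median log2 fold change was -0.078, and that of all tested genes was 4.3e-05. The 95% intervals of the 7 genes that were not called reached no further than -0.52 and 0.45. In the same comparison Gcg, the glucagon gene, fell by 0.18 on the log2 scale (edgeR adjusted p = 0.00954; 0.0523 without scramble replicate 1 and 0.0931 without Klf4 siRNA replicate 3), and its part in the Ifit2 difference was not tested.

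Between the batches more of these genes differed: 5 of the 8 were called, 3 higher in batch 2 (Ifih1, Mavs, Ddx58) and 2 lower (Irf3, Ifit2). Of all tested genes, 32.7% were called for batch and 16.8% were higher in batch 2. Ifih1, Mavs and Irf3 separated the batches without overlap, as did 29.4% of tested genes. The median of the 8 was -0.086, and that of all tested genes 0.00065. Ifih1 stood at 2.45 on the log2 scale, 5.45-fold higher, and the others lay between -0.31 and 0.60. Without scramble replicate 2 the number called was 3. If the batch label of Klf4 siRNA replicate 4 were batch 2, Ifih1 (edgeR adjusted p = 0.0790) and Mavs (0.0951) would not pass, while Stat2 (0.0201) and Irf9 (0.0462) would, both lower, and the number called would again be 5.

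**Figure D2:**
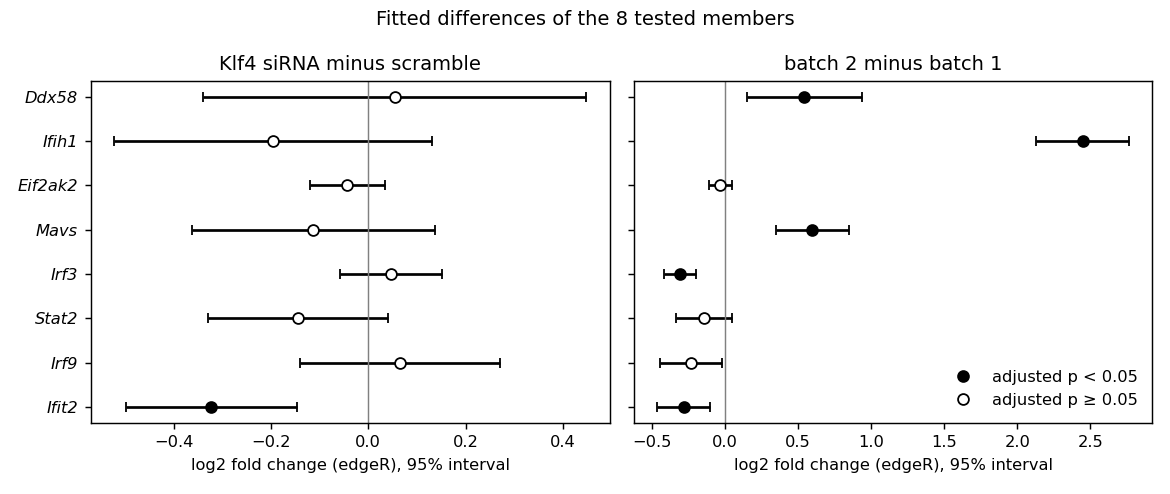
Fitted log2 fold changes (edgeR) of the 8 tested genes with 95% intervals, Klf4 siRNA minus scramble on the left and batch 2 minus batch 1 on the right, on axes of different width, with filled points for adjusted p under 0.05. Ifit2 (-0.32) is the only filled point for treatment, and Ifih1 (2.45) stands far to the right of the others for batch.

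Ifih1 encodes MDA5, the sensor of long double-stranded RNA (chromosome 2, 62595798 to 62646255, minus strand, GRCm38). It had 29 and 32 counts in scramble replicates 1 and 2 and 36, 40 and 25 in Klf4 siRNA replicates 1, 2 and 4, all batch 1. In batch 2 it had 224 and 236 counts in scramble replicates 3 and 4 and 155 in Klf4 siRNA replicate 3. The exact Poisson 95% interval, which covers counting error only, was 28.6 to 54.5 for the highest count of batch 1 and 132 to 181 for the lowest of batch 2. In CPM the 5 libraries of batch 1 were between 0.471 and 0.731 and the 3 of batch 2 between 2.94 and 4.08. The batch means were 0.619 ± 0.115 (SD, n = 5) and 3.50 ± 0.567 CPM (SD, n = 3). With treatment in the model the fitted difference was 5.45-fold, a log2 value of 2.45 (95% interval 2.13 to 2.76; edgeR adjusted p = 8.19e-11). Among scramble libraries alone the log2 difference was 2.59. Only 99 of the 16333 tested genes, 0.606%, had a larger absolute batch difference.

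By treatment, Ifih1 averaged 2.19 ± 1.86 CPM in scramble and 1.21 ± 1.16 CPM after Klf4 siRNA (SD, n = 4 each). Of the 4 scramble libraries 2 are in batch 2, and of the 4 Klf4 siRNA libraries 1. With batch in the model the log2 fold change was -0.20 (95% interval -0.52 to 0.13; edgeR adjusted p = 0.506). Within batch 1 the log2 difference was 0.059 and within batch 2, which holds 1 Klf4 siRNA library, it was -0.36. Without Klf4 siRNA replicate 3 the fitted value was 0.087.

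Ddx58 encodes RIG-I, the sensor of 5′-triphosphate RNA (chromosome 4, 40203773 to 40239828, minus strand). Its counts were 36, 37, 84 and 72 in scramble and 33, 56, 53 and 56 after Klf4 siRNA. In CPM these were 0.645, 0.786, 1.31 and 1.24 for scramble and 0.670, 0.969, 1.01 and 1.06 for Klf4 siRNA. The scramble libraries separated by batch, while the Klf4 siRNA libraries did not. The log2 fold change for treatment was 0.05 (95% interval -0.34 to 0.45; edgeR adjusted p = 0.909). It was 0.30 within batch 1 and -0.33 within batch 2. The difference between those values was itself not past the threshold (edgeR interaction term, log2 -0.69, SE 0.36, adjusted p = 0.999). Ddx58 was higher in batch 2, by 0.54 on the log2 scale (SE 0.19; edgeR adjusted p = 0.0322). That call was lost on leaving out scramble replicate 1 (adjusted p = 0.175), 2 (0.0862), 3 (0.122) or 4 (0.0745) or Klf4 siRNA replicate 1 (0.0595).

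Tlr3, the endosomal sensor of double-stranded RNA (chromosome 8, 45395665 to 45411080, minus strand), was barely detected. It had 8, 8, 10 and 3 counts in scramble and 4, 5, 5 and 2 after Klf4 siRNA. A count of 10 has an exact Poisson 95% interval of 4.80 to 18.4, and a count of 2 one of 0.242 to 7.22, which cover counting error only. The means were 0.130 ± 0.0534 and 0.0751 ± 0.0256 CPM (SD, n = 4 each), with groups that overlapped over all libraries though not within batch 1. Fitted without the low-count filter, the log2 fold change was -0.82 (SE 0.52; edgeR adjusted p = 0.549) and the batch difference -0.22 (SE 0.52; adjusted p = 0.841). No difference was detectable at this depth, and 381 of its exon bases are shared with an antisense gene, Gm45542, whose reads cannot be told apart unless strand was used in counting, which the sources used here do not give.

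Eif2ak2, which encodes the kinase PKR (chromosome 17, 78852564 to 78882573, minus strand), was the steadiest of the sensors. It was at 42.6, 42.9, 41.6 and 39.3 CPM in scramble and at 41.1, 41.0, 41.2 and 38.9 CPM after Klf4 siRNA. The means were 41.6 ± 1.59 and 40.6 ± 1.11 CPM (SD, n = 4 each), and the 8 libraries overlapped by treatment and by batch. Within batch 1 the treatments did not overlap, with Klf4 siRNA lower (log2 -0.083), and within batch 2 the log2 value was 0.028. The log2 fold change was -0.043 (95% interval -0.12 to 0.034; edgeR adjusted p = 0.542). The batch difference was -0.031 on the same scale (SE 0.038; adjusted p = 0.577), so that both differences lay within the spread between libraries.

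**Figure D3:**
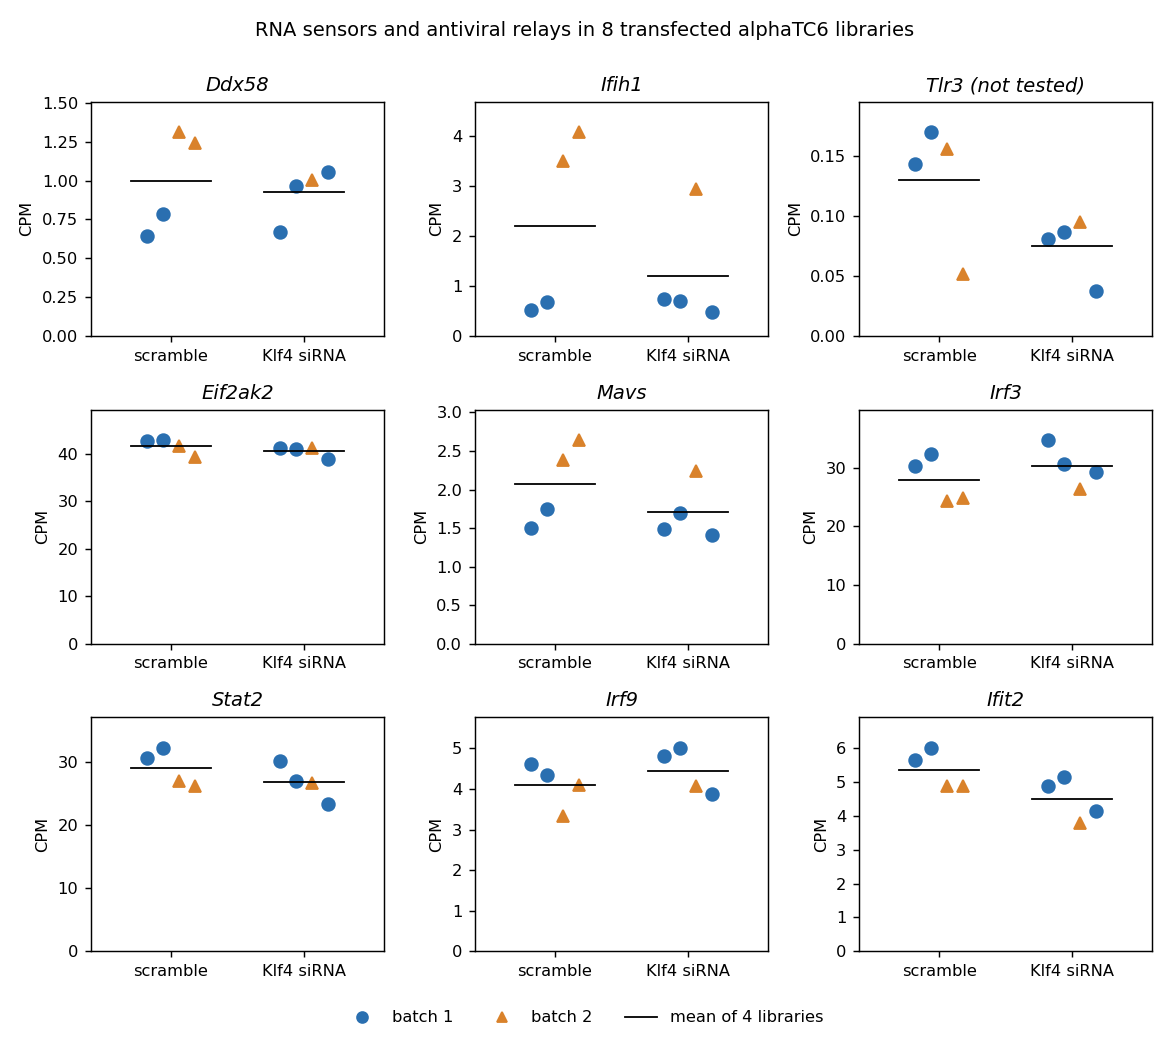
CPM of the 9 genes in each of the 8 libraries, by treatment, with circles for batch 1, triangles for batch 2, a line at the mean of the 4 libraries of a treatment, and each vertical axis starting at 0. Ifih1 and Mavs separate by batch in both treatments, Irf3 separates by batch in the other direction, and Ifit2 is lower after Klf4 siRNA within each batch.

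Mavs encodes the adaptor shared by both RIG-I-like receptors (chromosome 2, 131234063 to 131248025, plus strand). It was at 1.504, 1.742, 2.388 and 2.642 CPM in scramble and at 1.48, 1.70, 2.24 and 1.41 CPM after Klf4 siRNA. All 3 libraries of batch 2 lay above all 5 of batch 1, with means of 2.42 ± 0.203 (SD, n = 3) and 1.57 ± 0.143 CPM (SD, n = 5). The fitted batch difference was 1.51-fold, a log2 value of 0.60 (SE 0.12; edgeR adjusted p = 0.000578). By treatment the log2 fold change was -0.11 (95% interval -0.36 to 0.14; adjusted p = 0.639), with -0.083 in batch 1 and -0.16 in batch 2.

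Irf3, the transcription factor activated downstream of Mavs (chromosome 7, 44997648 to 45002848, plus strand), ran opposite to Mavs by batch. It was at 30.2, 32.3, 24.3 and 24.8 CPM in scramble and at 34.7, 30.7, 26.4 and 29.3 CPM after Klf4 siRNA. The 3 libraries of batch 2 were below all 5 of batch 1, 25.2 ± 1.11 (SD, n = 3) against 31.5 ± 2.13 CPM (SD, n = 5). The batch difference was -0.31 on the log2 scale (SE 0.052; edgeR adjusted p = 0.000128). The log2 fold change for treatment was 0.047 (95% interval -0.058 to 0.15; adjusted p = 0.641). Irf3 shares 88 exon bases with Bcl2l12 on the opposite strand.

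Stat2 and Irf9 are partners in the complex that carries the interferon signal to DNA. Stat2 (chromosome 10, 128270559 to 128292849, plus strand) was at 30.6, 32.3, 27.0 and 26.3 CPM in scramble and at 30.3, 27.1, 26.8 and 23.3 CPM after Klf4 siRNA. The fitted treatment difference was -0.14 on the log2 scale (95% interval -0.33 to 0.040; edgeR adjusted p = 0.337). The value was -0.23 in batch 1, where the groups did not overlap, and 0.0071 in batch 2. With no filter on low counts Stat2 passed the threshold (edgeR adjusted p = 0.0240). Its batch difference was -0.14 (SE 0.084; adjusted p = 0.249; 0.00256 without Klf4 siRNA replicate 4).

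Irf9 (chromosome 14, 55603571 to 55610030, plus strand) was at 4.62, 4.36, 3.32 and 4.09 CPM in scramble and at 4.81, 5.02, 4.08 and 3.88 CPM after Klf4 siRNA. The groups overlapped, and the log2 fold change was 0.066 (95% interval -0.14 to 0.27; edgeR adjusted p = 0.759). The batch difference was -0.23 (SE 0.10; adjusted p = 0.0922; 0.0176 without Klf4 siRNA replicate 4). Irf9 shares 123 exon bases with Rnf31 on the same strand.

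Ifit2, an interferon-induced protein that binds RNA and restrains translation (chromosome 19, 34550694 to 34576419, plus strand), was the 1 gene of the 8 tested that passed the threshold for treatment. It was at 5.64, 6.01, 4.88 and 4.87 CPM in scramble and at 4.87, 5.16, 3.78 and 4.15 CPM after Klf4 siRNA. Klf4 siRNA libraries were below the scramble libraries of the same batch in both batches, although the groups overlapped over all 8. The means were 5.35 ± 0.569 and 4.49 ± 0.636 CPM (SD, n = 4 each). Ifit2 fell by 0.32 on the log2 scale, to 79.98% of scramble (95% interval of the log2 value -0.50 to -0.15; edgeR adjusted p = 0.0150), with -0.31 in batch 1 and -0.37 in batch 2. A larger fall was fitted for 771 tested genes, 4.72%. The call was lost without scramble replicate 2 (adjusted p = 0.0872), without Klf4 siRNA replicate 3 (0.0960), in batch 1 alone (0.110), with no batch term (0.381), with the replicate number as a block in place of batch (0.0896) and with Klf4 siRNA replicate 4 in batch 2 (0.0660), while the log2 value stayed between -0.37 and -0.25 over 17 alternatives.

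Ifit2 was also lower in batch 2, with a log2 difference of -0.28 (SE 0.087; edgeR adjusted p = 0.0169; 0.0596 without scramble replicate 2, 0.119 without Klf4 siRNA replicate 3, 0.0696 among scramble libraries alone and 0.278 with no treatment term). The genes most like Ifit2 over the 8 libraries, by Pearson's r of log2 CPM with batch means removed, were Ipmk (0.994), Ap3m2 (0.993) and Plxnb2 (0.987). They are the highest of all tested genes by construction. The other genes of the Ifit cluster were close to undetected: Ifit1 had 0 to 2 counts per library, Ifit3 4 to 14 and Ifit3b 1 to 5.

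The batch difference of Ifih1 went with other differences between the same libraries. Gcg was 6.97-fold higher in batch 2 (log2 2.80; edgeR adjusted p = 2.17e-17), with 1064 to 1257 CPM in batch 1 and 7640 to 8913 CPM in batch 2. The 8 immune markers together stood at 5.67 to 6.30 CPM in batch 1 and 4.99 to 5.37 CPM in batch 2, with Adgre1 at 0 counts in all. Single markers moved in both directions: Itgam was lower in batch 2 (log2 -1.53; edgeR adjusted p = 9.68e-09), and Cd68 (log2 0.42; adjusted p = 0.0103; 0.0614 without scramble replicate 4 and 0.0539 without Klf4 siRNA replicate 3) and Lyz2 (log2 0.74; adjusted p = 0.0135) were higher. The 6 stromal and endothelial markers stood at 18.9 to 27.3 and 19.6 to 21.4 CPM, most of it Col1a2, and Pdgfra among them was lower in batch 2 (6.42 ± 0.811 CPM, SD, n = 5, against 3.04 ± 0.182 CPM, SD, n = 3; log2 -1.12; edgeR adjusted p = 2.94e-08). Their part in the result was not tested, and a change in the share of some cells cannot be told apart from a change in RNA per cell in bulk samples.

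The signalling steps between the sensors and interferon were followed in a list of 20 relays, all of which were tested. After Klf4 siRNA 3 were higher and none lower, 17 did not pass, and the median log2 fold change was -0.032. Over all tested genes 11.7% were called, 797 of the 16333 higher. Traf3, the ubiquitin ligase that couples MAVS to the kinases, was at 54.8 to 57.6 CPM in scramble and 60.0 to 63.5 CPM after Klf4 siRNA, with no overlap, and was higher by 0.16 on the log2 scale (edgeR adjusted p = 0.00173). Tbk1, the kinase that phosphorylates IRF3, was higher by 0.12 (adjusted p = 0.0219), and Tomm70a, a mitochondrial import receptor that docks MAVS, by 0.091 (adjusted p = 0.0297). The Tbk1 call was lost in 7 of 18 alternatives. It was lost with no batch term (0.341), in batch 1 alone (0.159) and with library size alone as scaling (0.0858). It was also lost without scramble replicate 1 (0.121), scramble replicate 2 (0.0504), Klf4 siRNA replicate 1 (0.0667) or Klf4 siRNA replicate 3 (0.149). The Tomm70a call was lost in 9 of 18 alternatives. Among them were no batch term (0.151), batch 1 alone (0.0708) and library size alone as scaling (0.0676). So were the fits without scramble replicate 1 (0.184), scramble replicate 2 (0.124), scramble replicate 3 (0.0508), Klf4 siRNA replicate 2 (0.0847) or Klf4 siRNA replicate 3 (0.0729). Dhx58, the third RIG-I-like receptor, was not called for treatment (log2 -0.076, adjusted p = 0.806).

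By batch, 3 of the 20 relays were higher and 6 lower in batch 2, where 32.7% of all tested genes were called and 16.8% were higher. Ikbke, which encodes the kinase IKKε, was at 1.28 to 1.72 CPM in batch 1 and 0.380 to 0.794 CPM in batch 2, a log2 difference of -1.38 (edgeR adjusted p = 2.10e-06). Its direction was opposite to that of Ifih1 and Mavs. Unc93b1, the chaperone that brings TLR3 to endosomes, was lower in batch 2, with a log2 difference of -0.59 (adjusted p = 8.58e-08). With Klf4 siRNA replicate 4 placed in batch 2, Ikbke (log2 -0.92; adjusted p = 0.0751) and Unc93b1 (0.0629) would not pass. Ikbke overlaps antisense genes by 159 and 65 exon bases.

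Of 10 brakes on the RIG-I-like pathway, 8 were tested, 2 were higher after Klf4 siRNA and none lower, beside the 11.7% of all tested genes called; by batch none was higher and 2 were lower, beside 32.7% of all tested genes called. The 2 were Itch and Tnfaip3, calls lost in 10 of 17 and 6 of 16 alternatives, the fits without scramble replicate 1 (0.0743 and 0.150), scramble replicate 4 (0.186 and 0.0674) and Klf4 siRNA replicate 3 (0.0879 and 0.182) among them. Rnf125, a ubiquitin ligase that marks RIG-I, MDA5 and MAVS for degradation, was at 12.5 to 13.3 CPM in scramble and 14.8 to 17.9 CPM after Klf4 siRNA. It did not overlap between groups and was higher by 0.35 on the log2 scale (SE 0.061; edgeR adjusted p = 0.000606). Sike1, a suppressor of IKKε and TBK1, was at 27.0 to 28.7 and 31.0 to 33.0 CPM, higher by 0.19 (adjusted p = 0.00150). Traf3, Rnf125 and Sike1 passed the threshold in each of 18 alternatives. The RNA of Ddx58, Ifih1 and Mavs, whose proteins Rnf125 acts on, was not called for treatment, and these data do not measure protein.

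None of 10 interferon genes of types I, II and III had a count in any library, which allows up to 0.0468 to 0.0637 CPM per gene and library. How reads shared by near-identical interferon genes were counted is not given in the sources used here. Of 15 interferon receptor and JAK-STAT genes 14 were tested. By batch, the kinase gene Jak1 was higher in batch 2 (log2 0.20, edgeR adjusted p = 2.41e-05) and Jak2 was lower (log2 -0.24, adjusted p = 0.000547).

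Of 38 interferon-stimulated effectors, 15 were tested, and 23 did not pass the filter. Isg15 had 1 to 4 counts per library, Mx1 0 to 2 and Ifit1 0 to 2. Others of the list were well counted: Isg20 had 673 to 2003 counts per library, Ifi27 840 to 1311 and Ifitm2 894 to 1105 (genes named here after their counts were seen). After Klf4 siRNA 1 of the 15 was lower and none higher, where 6.81% of all tested genes were lower, and the median was -0.15. The 1 was Isg20, an exonuclease that degrades RNA, at 24.4, 21.01, 31.3 and 33.4 CPM in scramble and 13.7, 14.1, 20.4 and 15.6 CPM after Klf4 siRNA. The groups did not overlap, and Isg20 fell by 0.66 on the log2 scale, to 63.4% of scramble (SE 0.055; edgeR adjusted p = 8.47e-08; 0.0732 with no batch term).

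By batch, 8 of the 15 tested effectors were higher in batch 2 and none lower, with a median log2 difference of 0.58 against 0.00065 for all tested genes, of which 16.8% were called higher. The filter on low counts bears on this share: without it 9 of 36 effectors were higher, with a median of 0.46. Over all genes of that fit 2968 were called higher, and the median was 0.0057. Dtx3l, a ubiquitin ligase that works with PARP9, was at 0.640 to 0.830 CPM in batch 1 and 1.75 to 2.73 CPM in batch 2, a fitted 3.06-fold difference (log2 1.61; edgeR adjusted p = 7.48e-08). Parp12, an ADP-ribosyltransferase with antiviral activity, was at 5.92 to 8.37 and 13.4 to 14.9 CPM (log2 0.90; adjusted p = 2.55e-08). Parp9, named after its values were seen, was higher by 1.48 and shares 458 exon bases with Dtx3l on the opposite strand. The direction was thus that of Ifih1, while the Ifit2 difference was in the other direction. The 8 would be 2 of 15 if Klf4 siRNA replicate 4 were placed in batch 2, where 1425 of 16333 genes were higher. Scramble libraries alone gave 6 of 13 tested effectors, where 2257 of 15394 genes were higher.

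**Figure D4:**
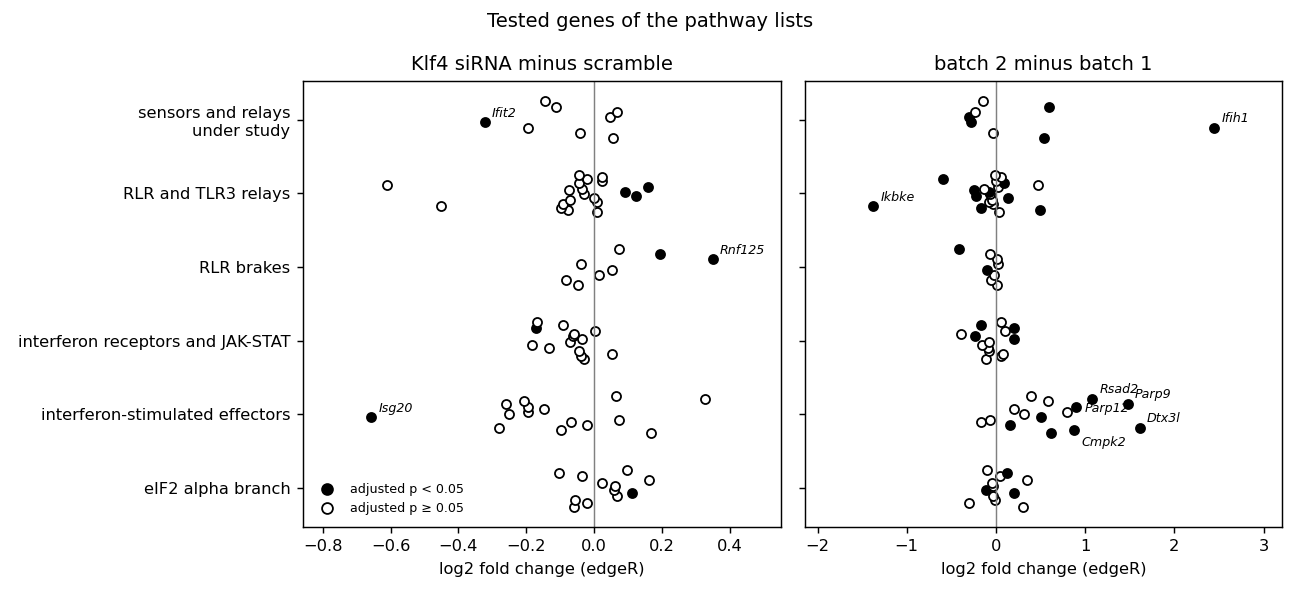
Fitted log2 fold changes (edgeR) of every tested gene in the 9-gene group and 5 pathway lists, Klf4 siRNA minus scramble on the left and batch 2 minus batch 1 on the right; filled points have adjusted p under 0.05, vertical scatter within a row carries no value, and names mark the called genes farthest from 0, picked by size. Isg20 (-0.66) and Ifit2 (-0.32) are the lowest called genes for treatment, and Ifih1 and 8 effectors lie to the right for batch.

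The eIF2 alpha branch, into which Eif2ak2 feeds, was tested in all 12 of its listed genes, and 1 was called after Klf4 siRNA, against 11.7% of all tested genes. Eif2ak3, the sister kinase PERK that senses stress in the endoplasmic reticulum, was higher by 0.11 (edgeR adjusted p = 0.0292), a call lost in 11 of 18 alternatives, among them the fits without any of scramble replicates 1 (0.0745), 2 (0.144) and 3 (0.0604) and Klf4 siRNA replicates 1 (0.0730), 2 (0.0719) and 3 (0.150). Of 14 other nucleic acid sensors 4 were tested. Dhx33, a helicase, was higher by 0.14 (adjusted p = 0.0113; 0.106 without scramble replicate 1 and 0.0604 without Klf4 siRNA replicate 3). That call was also lost with no batch term (0.175), in batch 1 alone (0.0704) and with the replicate number as a block in place of batch (0.0827). The DNA-sensing pair Cgas and Tmem173 had 4 to 11 and 0 to 6 counts per library.

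Among the 8 tested genes themselves, Pearson's r of log2 CPM with batch means removed was highest for Stat2 and Eif2ak2 (0.86, n = 8 libraries) and lowest for Stat2 and Ddx58 (-0.75). Mavs had 0.75 with Ifit2 and 0.73 with Ifih1. These describe 8 libraries that share treatments and depth, and no p is attached to them. The interaction of batch and treatment reached an adjusted p under 0.05 for 0 of the 16333 genes in edgeR (540 at an unadjusted p under 0.05; 13 genes without scramble replicate 3), and the adjusted p of each of the 8 was 0.999.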

How the data were processed

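Poly(A) RNA was sequenced in 8 alphaTC6 libraries (Tecan kit), per the labels' protocols. The deposited values are raw counts per gene, whole numbers without normalization; the submitters' processing notes name FastQC, STAR, featureCounts, DESeq2 and mm10, and the design text names edgeR with batch correction. Whether counting used strand is not given in the sources used here. All 55536 gene identifiers and symbols matched GENCODE mouse release 21 (GRCm38), which gave positions, exon lengths and overlaps. Counts were fitted with edgeR 4.0.16 in R 4.3.3 (filterByExpr by treatment with a minimum count of 10, TMM, robust quasi-likelihood F test, batch plus treatment), with Benjamini-Hochberg adjustment over all 16333 tested genes and a threshold of 0.05. The fit has 5 residual degrees of freedom. The batch difference is a coefficient of that fit, and the interaction was fitted separately. The log2 CPM used for correlations had a prior count of 2. No 2 libraries had identical counts. Alternatives used DESeq2 1.42.0, limma 3.58.1, other scalings and filters, and each library left out.

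The 9 genes and the other lists were chosen with earlier results of these data known. All 9 were named; other lists gave, by smallest adjusted p, up to 4 called genes for treatment and 2 for batch, and the 3 genes most correlated with a called gene; undetected genes and single genes beside these were named after their values were seen. Some genes of the lists are not reported here.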

Additional observations from a re-analysis of the deposited data

Results flagged for a closer look

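In 68 groups of 4 libraries (the named genes in each treatment), 6 had a highest or lowest library whose gap to the next divided by the group's range was above Dixon's critical value. Some of the named genes, Gcg, Ikbke, Itgam and Cd68 among them, were picked by their batch difference. The rate at which chance flags groups, about 1 in 20, is therefore no yardstick here. Of the 6, 5 concern Klf4 siRNA replicate 3, which alone of its treatment is in batch 2 and so stands apart for genes picked in this way. Ifih1 was at 2.94 CPM there and at 0.471 to 0.731 CPM in the other 3 Klf4 siRNA libraries (gap 0.895 of the range). Gcg was at 7640 CPM against 1064 to 1231 CPM (0.975). Cd68, a macrophage lysosomal gene, was at 2.07 against 1.54 to 1.62 CPM (0.840). Ikbke was lowest there, at 0.380 against 1.28 to 1.37 CPM (0.911), and so was Itgam, at 0.873 against 2.34 to 2.62 CPM (0.839), a gene that shares 3450 exon bases with Gm49368. Eif2ak2 was lowest in Klf4 siRNA replicate 4, at 38.9 against 41.0 to 41.2 CPM (0.906).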

How the results depend on the processing

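The treatment called 1909 genes; this became 409 with no batch term, 1232 in batch 1 alone, 997 at an adjusted p under 0.01 and 934 to 2021 with 1 library left out (934 without scramble replicate 1, 1012 without scramble replicate 2 and 1232 without Klf4 siRNA replicate 3). Of the 8 tested genes the treatment called 1; this became 0 with no batch term, in batch 1 alone, with Klf4 siRNA replicate 4 in batch 2, at a mean of at least 5 CPM (a filter that leaves 3 of the 8 and removes Ifit2 before the test, so that this 0 says nothing of its stability) and at an adjusted p under 0.01, 2 with no filter, and 0 to 1 with 1 library left out. Batch called 5343 genes, and 2882 with Klf4 siRNA replicate 4 in batch 2; of the 8 it called 5, then 1 of the 3 left at a mean of at least 5 CPM, 3 at an adjusted p under 0.01 and 3 to 7 with 1 library left out. The interaction called 0 to 13 genes with 1 library left out; it could not be fitted without Klf4 siRNA replicate 3. Library size alone as scaling moved the share of lower batch calls from 48.6% to 61.1%.

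With the replicate number as a block in place of batch, the treatment called 1220 genes and 0 of the 8. Deviations of same-numbered libraries correlated at 0.49, 0.42, 0.72 and -0.34 for numbers 1 to 4, and at -0.00053, -0.040, -0.30 and 0.12 once batch means were removed; not every pair was above 0.1, so the numbers were not taken to pair them. The Ddx58 treatment value reversed under that replicate block (-0.086), with no batch term (-0.11), with Klf4 siRNA replicate 4 in batch 2 (-0.074) and without scramble replicate 1 (-0.092), Klf4 siRNA replicate 2 (-0.0096) or 4 (-0.045). Its range with 1 library left out was -0.092 to 0.34. The Ifih1 value reversed in batch 1 alone (0.083) and without Klf4 siRNA replicate 3 (0.087), with a range of -0.29 to 0.087 over single libraries left out. The causes were not tested. Over all single values, 653 alternatives kept direction and side of the threshold, 119 lost a call, 7 gained one and 8 reversed. Depth limits Tlr3, and lengths from the longest transcript kept the order of the 9 levels.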
